A study of Mus musculus with 20 samples.

Results

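The genes described here fold, process and export proteins in the endoplasmic reticulum (ER). They were taken as a named list of 35 genes and looked up by symbol among the 34291 rows of the deposited count table. All 35 were present, and 34 of them had enough reads to be tested. Poly(A) RNA came from 20 whole hearts of C57BL/6 mice aged 27 months. The 10 rapamycin hearts were from mice given food with 14 ppm rapamycin, an inhibitor of the kinase mTOR, and the 10 control hearts were from mice of the same strain and age on a control diet. Feeding started at 24 months of age and lasted 3 months. The question is what late-life rapamycin does to the transcripts of the old heart. The sex of the mice is not given in the sources used here. A whole heart mixes cardiomyocytes with fibroblasts, endothelial cells and leukocytes, so fewer cells of a type and less RNA per cell cannot be told apart.

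Proteins bound for membranes or for secretion enter the ER through the Sec61 channel, lose their signal peptide, and are folded by the Hsp70 chaperone BiP (Hspa5), by the lectins calnexin and calreticulin, and by disulfide isomerases. Proteins that fail to fold are sent back to the cytosol for degradation. When unfolded protein accumulates, the sensors IRE1 (Ern1), PERK (Eif2ak3) and ATF6 start the unfolded protein response, which raises the transcripts of many of these same genes. In the heart the ER also forms the calcium store of the cardiomyocyte, while fibroblasts and plasma cells use the pathway for bulk secretion.

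The rapamycin libraries held 8525162 to 12458309 counts and the control libraries 7039514 to 10594335. Control 19 stood apart: 5 lung epithelium genes summed to 22940 CPM there, in read counts scaled to library size, against at most 349.6 in the other controls and at most 135.2 with rapamycin. In the same library 8 cardiomyocyte markers summed to 13750 CPM, against 41960 to 56240 with rapamycin (median 50740) and a control median of 40630 (highest 51840). All 8 had log2 fold changes above 0 with rapamycin (median 0.30), with 0 called and 5 at an unadjusted p under 0.05 (edgeR). Of all 13940 genes tested, 0.689% were called higher and 2.68% lower (adjusted p under 0.05 by edgeR). An unadjusted p under 0.05 (edgeR) was found for 21.7% of them, in either direction. The marker counts in this paragraph stand beside these shares. Summed over 12 macrophage markers the level was 519.4 to 995.9 CPM with rapamycin (median 581.3) and 714.4 to 3363 in controls (median 947.2), and 9 of the 12 fell. Summed over 11 B and plasma cell markers it was 30.97 to 113.9 CPM with rapamycin (median 51.4) and 27.65 to 492.1 in controls (median 117.0), with 0 of 10 tested markers called and 9 at an unadjusted p under 0.05 (edgeR). All 6 T and NK cell markers tested had values below 0 (median -1.52), with 2 called and 5 at an unadjusted p under 0.05 (edgeR). Of the 8 fibroblast and 8 endothelial markers 0 were called. All 5 mesothelium markers had values below 0 (median -0.89), with 1 called and 4 at an unadjusted p under 0.05 (edgeR). They summed to medians of 69.5 CPM with rapamycin and 99.5 CPM in controls. Summed over 5 liver genes, rapamycin 9 was at 322.0 CPM, against a rapamycin median of 1.74. The highest control sum of the liver genes was 32.23 CPM, in control 7 (control median 1.17). Control 19 had the highest control value of the macrophage sum and of the B and plasma cell sum, through 1 gene in each. Lyz2 gave 2842 CPM of the macrophage sum and Igj 423.7 CPM of the B and plasma cell sum. Without these, control 19 was at 521.5 CPM for the other 11 macrophage markers, against 327.8 to 593.7 with rapamycin (median 364.6) and 427.3 to 976.0 in controls (median 536.8). For the other 10 B and plasma cell markers it was at 68.3 CPM, against 29.6 to 103.1 with rapamycin (median 43.9) and 16.8 to 357.0 in controls (median 88.4).

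The promoters of several members carry a known regulatory sequence, shown here because it is a shared feature that does not depend on the counts. The ER stress response element (ERSE) pairs a CCAAT box, bound by NF-Y, with a CCACG box bound by ATF6. It was searched as CCAAT and CCACG separated by any 9 bases, on both strands of RefSeq promoters (GRCm38.p6, 250 bases before to 50 after each annotated start). A promoter was matched for 28 members, and 9 of these held it (32.1%), against 0.137% of all 27025 genes and 0.119% of all 32851 promoters. These were Calr, Canx, Creld2, Derl3, Dnajc3, Hsp90b1, Hspa5, Pdia6 and Syvn1. The element was already known for genes of this response, so the contrast with all genes is a description and not a test. The shorter ERSE-II, ATTGG and CCACG separated by any 1 base, was in Dnajb11 and Herpud1 and in 0.0444% of all genes. TGACGTGG, a sequence recognised by XBP1, was in 0 of the 28 and in 0.714% of all genes. The 5 promoters below run 5′ to 3′ on the strand of the gene, with ERSE or ERSE-II letters in capitals. Hspa5 and Creld2 show ERSE in either orientation and Herpud1 shows ERSE-II, while Sdf2l1 and Pdia3 are 2 members that fell with rapamycin and hold neither exact string.
Hspa5 (chr2:34771840-34772139, + strand): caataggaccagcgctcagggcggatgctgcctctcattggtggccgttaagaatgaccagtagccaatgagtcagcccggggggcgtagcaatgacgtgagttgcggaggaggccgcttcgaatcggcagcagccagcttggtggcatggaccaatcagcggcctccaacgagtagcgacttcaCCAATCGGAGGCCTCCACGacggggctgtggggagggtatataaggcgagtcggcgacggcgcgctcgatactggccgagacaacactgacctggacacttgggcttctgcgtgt
Creld2 (chr15:88819396-88819695, + strand): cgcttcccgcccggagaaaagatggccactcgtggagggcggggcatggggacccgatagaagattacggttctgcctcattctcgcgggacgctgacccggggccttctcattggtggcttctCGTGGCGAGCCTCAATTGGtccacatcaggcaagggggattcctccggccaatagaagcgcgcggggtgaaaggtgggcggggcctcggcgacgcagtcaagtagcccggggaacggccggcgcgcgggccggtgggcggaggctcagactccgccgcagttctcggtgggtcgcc
Herpud1 (chr8:94386179-94386478, + strand): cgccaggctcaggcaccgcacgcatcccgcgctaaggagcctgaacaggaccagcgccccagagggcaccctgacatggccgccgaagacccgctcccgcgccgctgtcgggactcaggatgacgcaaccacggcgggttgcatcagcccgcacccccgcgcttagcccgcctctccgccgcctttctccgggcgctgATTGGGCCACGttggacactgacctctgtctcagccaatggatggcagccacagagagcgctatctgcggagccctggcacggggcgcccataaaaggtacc
Sdf2l1 (chr16:17132334-17132633, - strand): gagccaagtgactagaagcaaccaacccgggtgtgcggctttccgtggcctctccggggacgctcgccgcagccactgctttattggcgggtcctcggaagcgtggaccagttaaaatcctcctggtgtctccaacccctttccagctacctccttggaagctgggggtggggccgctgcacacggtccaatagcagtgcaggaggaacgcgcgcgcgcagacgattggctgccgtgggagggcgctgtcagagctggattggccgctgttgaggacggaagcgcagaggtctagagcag
Pdia3 (chr2:121413652-121413951, + strand): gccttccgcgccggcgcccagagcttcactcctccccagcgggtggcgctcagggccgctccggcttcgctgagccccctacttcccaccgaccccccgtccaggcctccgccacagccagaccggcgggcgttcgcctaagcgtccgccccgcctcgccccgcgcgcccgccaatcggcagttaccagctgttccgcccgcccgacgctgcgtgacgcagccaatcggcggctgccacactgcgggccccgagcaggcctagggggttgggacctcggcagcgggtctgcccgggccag

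The ERSE of Hspa5 lay 65 to 47 bases before the start, and that of Creld2, on the opposite strand, 126 to 108 bases before it. Hsp90b1 held 2 copies. The median log2 fold change was -0.151 over the 8 tested genes with ERSE and -0.155 (range -0.74 to 0.07) over the 17 members whose promoter held neither string. Over the 10 tested genes with ERSE or ERSE-II it was -0.141 (range -0.37 to 0.16). Only exact letters were searched, so a promoter with a near match was counted as holding neither. Of the 8, 0 were called (edgeR), and both called genes with a promoter in the table, Sdf2l1 and Pdia3, were among the 17. A match of letters is a description and says nothing of binding in these hearts.

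**Figure D1:**
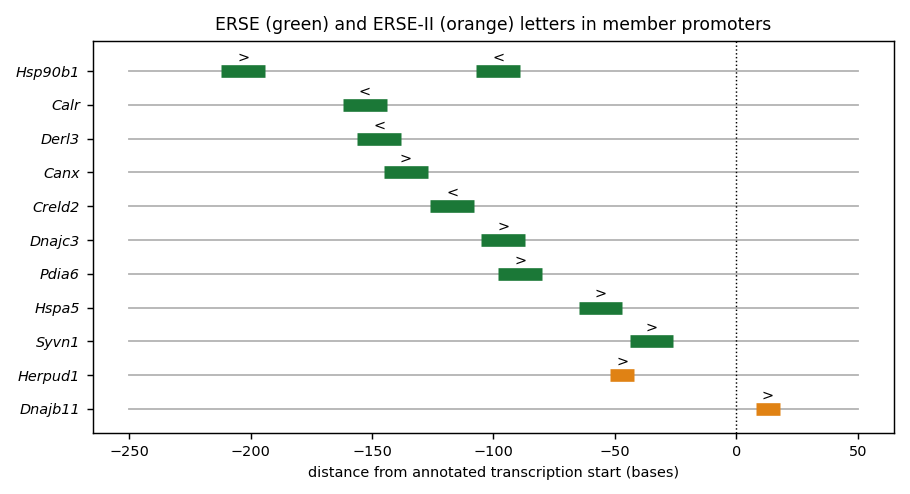
Positions of ERSE (green) and ERSE-II (orange) letters in the promoters of 11 members, in bases from the annotated transcription start (0, dotted line). The marks > and < give the strand of the match relative to the gene; Hsp90b1 has 2 matches, and all but that of Dnajb11 lie before the start.

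In rapamycin hearts 4 of the 34 tested members fell and 0 rose (edgeR quasi-likelihood test, adjusted p under 0.05 over all 13940 genes tested). They were the chaperone partner Sdf2l1, the luminal factor Manf, the disulfide isomerase Pdia3 and the Sec61 channel subunit Sec61a1. The 4 are 11.8% of the tested members, where 2.68% of all genes tested were called lower and 0.689% higher (3.36% either way). A log2 fold change below 0 was found for 30 of the 34, against 52.5% of all genes, and the median was -0.14, against -0.01 over all genes. An unadjusted p under 0.05 was found for 15 members, all with values below 0, against 21.7% of all genes in either direction. The 4 values above 0 were those of Atf6, Dnajb9, Herpud1 and Sec61g, of which all but Herpud1 turned negative when no scaling factor was used, while Sel1l, at -0.00 here, turned positive with the size factors of DESeq2. With no scaling factor 17 members were called lower, 33 values were below 0 and the median was -0.28, but the median of all genes then moved to -0.13. Most shifts were small, and each log2 fold change is given with its SE. Apart from Sdf2l1, no member with a value below 0 had a log2 fold change beyond -0.48.

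**Figure D2:**
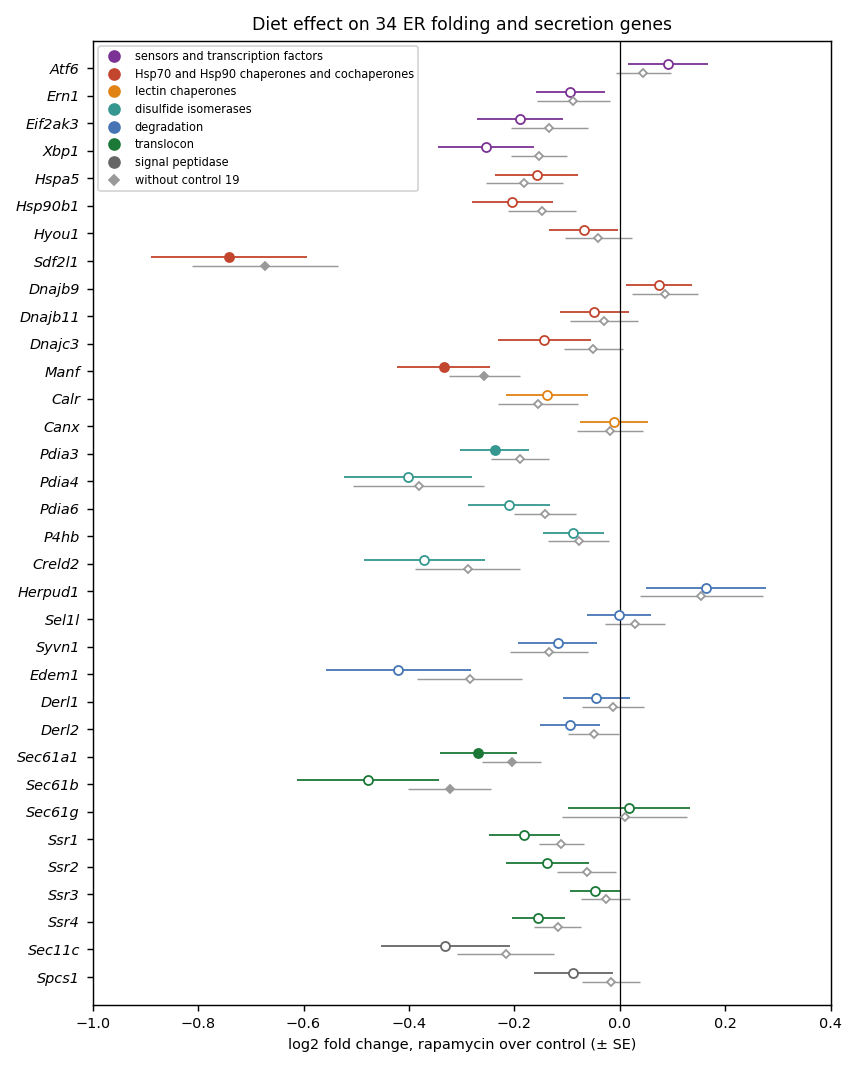
Log2 fold change of rapamycin over control with its SE for the 34 tested members, grouped by role; circles use all 20 libraries, grey diamonds leave out control 19, and filled symbols have an adjusted p under 0.05. Sdf2l1 lies farthest from 0 (-0.74), and 30 of the 34 circles lie left of 0 (33 with no scaling factor).

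Without control 19 the count was also 4, of 34, against 2.33% of all genes called lower, 1.05% higher and 3.38% either way. Sdf2l1, Manf and Sec61a1 were called in both fits, Pdia3 was not (adjusted p = 0.0604 by edgeR) and Sec61b was (0.0248). The median of the members was then -0.11, with 29 values below 0, against 48.6% of all genes. Marker levels of several cell types moved with the diets. Those of macrophages, cardiomyocytes, B and plasma cells and fibroblasts were each also entered as a covariate, as the mean log2 CPM of the tested markers. The levels of T and NK cells, endothelial cells and mesothelium were not entered. With the macrophage level in the fit 0 members were called, and so were 0.0% of all genes, with 4 members and 646 genes (4.63%) at an unadjusted p under 0.05 (edgeR). Values below 0 were then found for 27 members and 51.7% of all genes. With Lyz2 left out of that level, a fit added after seeing the data, 0 members and 0 genes were called, with 9 members and 936 genes at an unadjusted p under 0.05 (edgeR), and Sdf2l1 was at -0.55 ± 0.19. With the cardiomyocyte level 0 members were called, against 0.28% of all genes lower and 0.0789% higher (0.359% either way), with 9 members and 13.4% of all genes at an unadjusted p under 0.05 (edgeR). Values below 0 were then found for 29 members and 52.0% of all genes. With the level of B and plasma cell markers 3 of the 4 were called and Manf was not (adjusted p = 0.0693 by edgeR). In that fit 432 of all 13940 genes were called, with 11 members and 2744 genes at an unadjusted p under 0.05 (edgeR). Values below 0 were then found for 29 members. With the macrophage level in the fit the log2 fold change was -0.24 ± 0.13 for Manf, -0.13 ± 0.09 for Pdia3 and -0.11 ± 0.10 for Sec61a1. With the cardiomyocyte level it was -0.20 ± 0.08 for Manf, -0.14 ± 0.06 for Pdia3 and -0.14 ± 0.06 for Sec61a1. The share of the shift that any cell type carries was not tested.

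**Figure D3:**
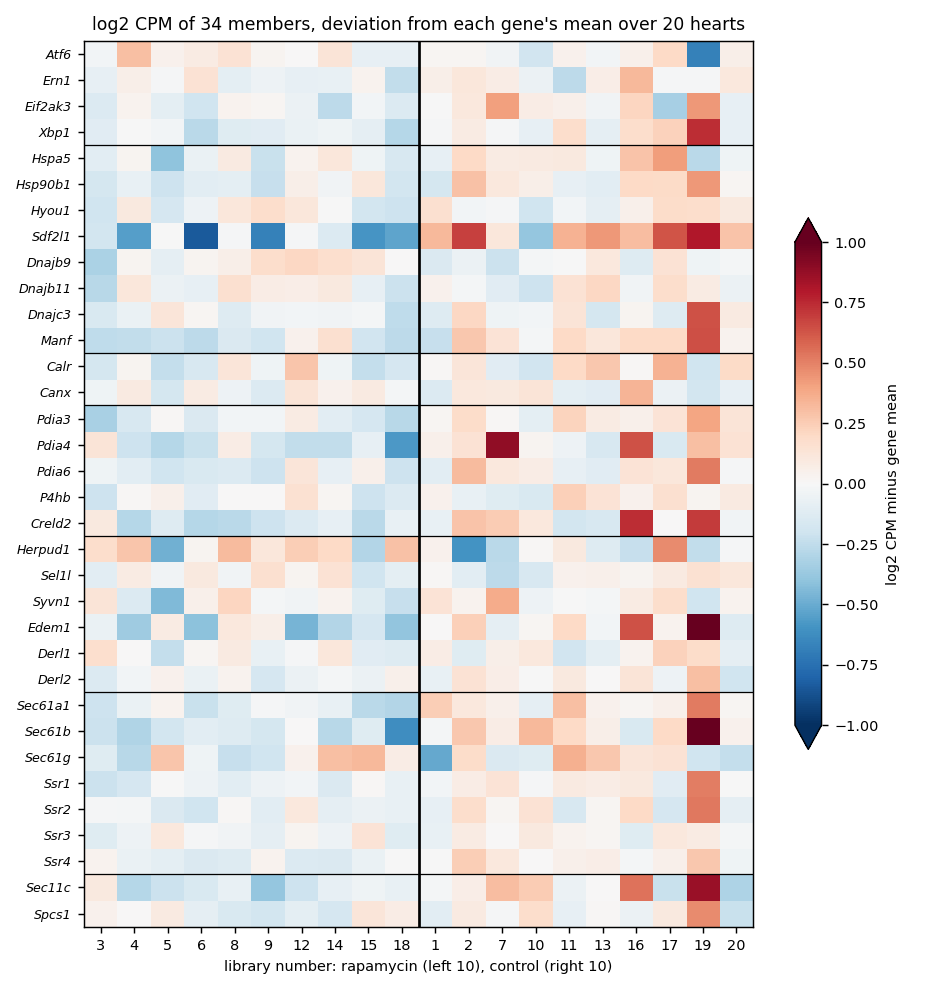
Log2 CPM of the 34 tested members in each library as the deviation from the gene's mean over 20 hearts, with rapamycin libraries left of the black line and control libraries right of it; colours saturate at -1 and 1 (log2). Control 19 is the column with the most dark red cells, and Sdf2l1 is the row in which the diets differ most.

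Control 19 held the highest control value for 19 of the 35 members and the lowest for 5, namely Hspa5, Calr, Canx, Syvn1 and Atf6. Control 17 was the highest for 8. Among rapamycin hearts no library took more than 8 of either extreme. The coefficient of variation was larger among controls than among rapamycin hearts for 28 of the 34 tested members, against 76.4% of all genes. With control 19 left out it was larger for 24 members, against 59.2% of all genes. For no member were the diets fully separated (0.0717% of all genes were), and for 9 members all 10 rapamycin libraries lay below the control median, against 4.96% of all genes. These 9 were Sdf2l1, Manf, Pdia3, Sec61a1, Sec61b, Xbp1, Eif2ak3, Ssr1 and Ssr4.

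Among the Hsp70 and Hsp90 chaperones and their partners 2 of 8 fell, against 2.68% of all genes called lower. Sdf2l1, which associates with BiP and its cofactor Dnajb11 and helps keep misfolded proteins from aggregating, stood at 2.99 to 5.51 CPM in rapamycin hearts (median 4.29) and at 4.17 to 9.74 in controls (median 7.01). Its mean was 4.37 ± 0.979 CPM with rapamycin and 7.26 ± 1.59 in controls (SD, n = 10 per diet), a log2 fold change of -0.74 ± 0.15 (SE, adjusted p = 0.0145 by edgeR). That is a level 40.2% lower, and 9 of the 10 controls lay above the highest rapamycin library, control 10 being the exception. The call held in all 20 fits that each left out 1 library (adjusted p 0.00666 to 0.0354 by edgeR). With the macrophage level as a covariate the value was -0.49 ± 0.19 (adjusted p = 0.927), and with the cardiomyocyte level -0.63 ± 0.16 (0.0776). It is among the least abundant members, so counting error weighs on each library.

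Manf, a small ER stress-induced protein that binds BiP and can also be secreted, stood at 24.6 to 33.1 CPM with rapamycin (median 25.5) and at 25.2 to 46.3 in controls (median 33.2). Means were 26.6 ± 2.86 with rapamycin and 33.3 ± 5.48 in controls (SD, n = 10 per diet), a log2 fold change of -0.33 ± 0.09 (adjusted p = 0.0405 by edgeR), or 20.7% lower. The diets overlapped, with all rapamycin libraries below the control median and 5 controls above the highest rapamycin library. The highest control was control 19, without which the value was -0.26 ± 0.07 (adjusted p = 0.0357 by edgeR).

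Hspa5, BiP itself, did not pass. It stood at 363.4 to 518.2 CPM with rapamycin (median 462.7) and at 397.5 to 642.7 in controls (median 509.3), a log2 fold change of -0.16 ± 0.08 (adjusted p = 0.246 by edgeR). The ranges overlapped widely, and 8 of 10 rapamycin libraries were below the control median. Its lowest control was control 19, where most other members were highest. Hsp90b1, the ER Hsp90 known as GRP94, was at -0.20 ± 0.08 (adjusted p = 0.129). Dnajc3, an Hsp40 cofactor that also inhibits PERK, was at -0.14 ± 0.09, or -0.05 without control 19. The other Hsp40 cofactors Dnajb9 (0.07 ± 0.06) and Dnajb11 (-0.05 ± 0.06) and the nucleotide exchange factor Hyou1 (-0.07 ± 0.07) lay within 2 SE of 0.

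**Figure D4:**
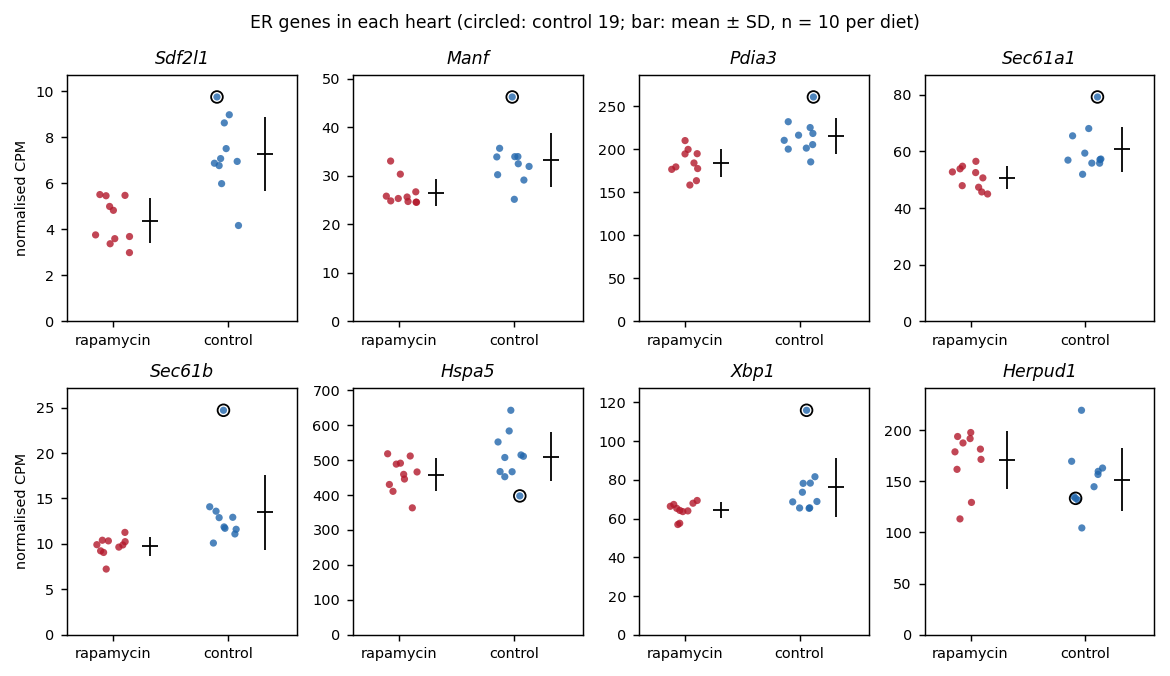
Normalised CPM of 8 members in every heart, rapamycin (red) left of control (blue), on linear axes from 0; black bars give mean ± SD (n = 10 per diet) and control 19 is circled. The diets overlap in every panel, and control 19 is the highest control for Sdf2l1, Manf, Pdia3, Sec61a1, Sec61b and Xbp1 but the lowest for Hspa5.

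The lectin chaperones gave no call. Calr, luminal calreticulin, stood at 148.7 to 212.7 CPM with rapamycin (median 163.8) and at 153.3 to 223.6 in controls (median 184.4), with a log2 fold change of -0.14 ± 0.08 (adjusted p = 0.312 by edgeR). Canx, its membrane-bound relative calnexin, was at -0.01 ± 0.06, the second smallest shift of the list, with 331.1 ± 23.4 CPM with rapamycin and 332.2 ± 39.3 in controls (SD, n = 10 per diet).

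Of 5 disulfide isomerases and their relatives 1 fell, against 2.68% of all genes called lower. All 5 had values below 0, as did 52.5% of all genes. Pdia3, which works with calnexin and calreticulin on glycoproteins, stood at 158.5 to 210.1 CPM with rapamycin (median 181.8) and at 185.4 to 260.8 in controls (median 213.4). Its means were 183.9 ± 16.2 and 215.6 ± 20.8 CPM in rapamycin and control hearts (SD, n = 10 per diet), a log2 fold change of -0.24 ± 0.07 (adjusted p = 0.0476 by edgeR), or 15.2% lower. In 6 rapamycin libraries the level was below every control. Without the 4 libraries with lung transcripts (rapamycin 15 and controls 1, 19 and 20) the value was -0.18 ± 0.07 (adjusted p = 0.140 by edgeR). Pdia4 had a larger value with a larger spread, -0.40 ± 0.12 (adjusted p = 0.0671), and was highest at 98.0 CPM in control 7, against at most 57.9 with rapamycin. Creld2, an ER stress-induced protein with isomerase activity, was at -0.37 ± 0.12 (adjusted p = 0.0731), Pdia6 at -0.21 ± 0.08 (0.121) and P4hb, which is also a subunit of the collagen prolyl hydroxylase, at -0.09 ± 0.06 (0.387).

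None of the sensors and transcription factors passed. Xbp1, whose transcript IRE1 splices to make an active transcription factor, stood at 56.9 to 69.3 CPM with rapamycin (median 64.7) and at 65.3 to 115.9 in controls (median 71.2). All rapamycin libraries lay below the control median and 6 below every control, with a log2 fold change of -0.25 ± 0.09 (adjusted p = 0.112 by edgeR), or -0.15 ± 0.05 (0.102) without control 19. Counts per gene do not separate spliced from unspliced Xbp1.

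Eif2ak3, encoding PERK, stood at 17.1 to 21.1 CPM with rapamycin (median 19.5) and at 16.3 to 27.8 in controls (median 21.5), a log2 fold change of -0.19 ± 0.08 (adjusted p = 0.183 by edgeR). All 10 rapamycin libraries were below the control median, though control 17 was lower than any of them. Ern1, encoding IRE1, stood at 10.6 to 13.9 CPM with rapamycin (median 12.1) and at 10.5 to 15.8 in controls (median 13.2), with a value of -0.09 ± 0.07 (0.420). Atf6 stood at 140.0 to 182.0 CPM with rapamycin (median 151.7) and at 92.6 to 170.0 in controls (median 150.2), with 0.09 ± 0.08 (0.509), or 0.04 without control 19, its lowest library. The medians of Atf6 were therefore nearly equal in both diets.

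In ER-associated degradation no gene passed among the 6 tested. Edem1, which hands misfolded glycoproteins over for degradation, came nearest. It stood at 23.8 to 35.5 CPM with rapamycin (median 28.1) and at 30.1 to 66.7 in controls (median 33.6), a log2 fold change of -0.42 ± 0.14 (adjusted p = 0.0838 by edgeR), and 6 rapamycin libraries lay below every control. Its highest value was in control 19, without which it was -0.28 ± 0.10 (0.109). The ubiquitin ligase Syvn1 (-0.12 ± 0.07), its partner Sel1l (-0.00 ± 0.06) and the channel proteins Derl1 (-0.04 ± 0.06) and Derl2 (-0.09 ± 0.06) were all within 2 SE of 0. Herpud1, a membrane scaffold of the same complex, had the highest value of the list, 0.16 ± 0.11 (0.420), with 170.6 ± 28.4 CPM with rapamycin and 151.7 ± 30.6 in controls (SD, n = 10 per diet).

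Derl3, a derlin known from secretory cells, was too low to test, at a median of 6 counts per library and between 0 and 34. It stood at 0 to 0.948 CPM with rapamycin (median 0.431) and at 0.0914 to 3.94 in controls (median 0.830). The highest value, 3.94, was in control 19, where Igj was also highest, and the next control was at 1.66.

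Of 7 translocon genes 1 fell, against 2.68% of all genes called lower. An unadjusted p under 0.05 (edgeR) was found for 4 of the 7, against 21.7% of all genes in either direction. Sec61a1, the pore-forming subunit, stood at 44.99 to 56.5 CPM with rapamycin (median 51.6) and at 51.9 to 79.2 in controls (median 57.2). Means were 50.7 ± 4.01 with rapamycin and 60.7 ± 8.06 in controls (SD, n = 10 per diet), a log2 fold change of -0.27 ± 0.07 (adjusted p = 0.0457 by edgeR), and 7 controls lay above the highest rapamycin library. Without control 19 the value was -0.21 ± 0.06 (adjusted p = 0.0456), and without those 4 libraries with lung transcripts it was -0.17 ± 0.06 (adjusted p = 0.136, both by edgeR).

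Sec61b, a small subunit of the same channel, missed the threshold narrowly at -0.48 ± 0.13 (adjusted p = 0.05001 by edgeR). It stood at 7.23 to 11.3 CPM with rapamycin (median 9.90) and at 10.1 to 24.7 in controls (median 12.4), with 8 controls above the highest rapamycin library. The 24.7 belonged to control 19, without which the fold shrank to -0.32 ± 0.08 and passed (adjusted p = 0.0248). The third subunit, Sec61g, was at 0.02 ± 0.12 (0.952), with medians of 6.97 CPM with rapamycin and 6.98 in controls. The 3 subunits of one channel thus had unlike values; a test of the difference between them was not run.

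Among the subunits of the translocon-associated complex, which aids insertion of some signal peptides, Ssr4 was at -0.15 ± 0.05 (adjusted p = 0.0853 by edgeR) with 7 rapamycin libraries below every control, Ssr1 at -0.18 ± 0.07 (0.122), Ssr2 at -0.14 ± 0.08 (0.311) and Ssr3 at -0.05 ± 0.05 (0.588). Of the signal peptidase genes, the catalytic subunit Sec11c stood at 19.6 to 27.5 CPM with rapamycin (median 23.7) and at 20.8 to 46.9 in controls (median 26.4), a log2 fold change of -0.33 ± 0.12 (adjusted p = 0.123 by edgeR). Without control 19, where it was highest, it was -0.22 ± 0.09 (0.193). Its partner Spcs1 was at -0.09 ± 0.08, or -0.02 without control 19.

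Only Sdf2l1 kept its call in every fit that left out 1 library. Manf lost it in 11 of 20, without any 1 of rapamycin 3, 4, 6, 8, 9, 12, 15 or 18 or control 2, 7 or 11 (highest adjusted p = 0.0757 by edgeR). Sec61a1 lost it in 13, those 11 and the fits without rapamycin 14 or control 1 (highest 0.0841). Pdia3 lost it in 16, those 13 and the fits without control 13, 19 or 20 (highest 0.0907). Sec61b gained a call in 5 of 20 (lowest adjusted p = 0.0248) and Pdia4 in 1 (0.0408, without control 17). The folds moved less than the calls: Manf ranged from -0.37 to -0.26, Sec61a1 from -0.29 to -0.21 and Pdia3 from -0.26 to -0.19.

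**Figure D5:**
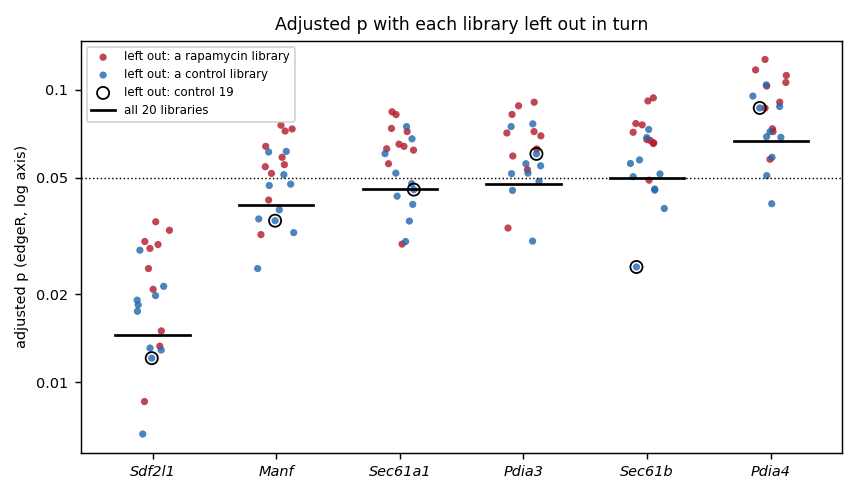
Adjusted p (edgeR, log axis) of 6 members in 20 fits that each leave out 1 library, red where a rapamycin library and blue where a control library was left out; black bars give the value with all 20 libraries, the circle the fit without control 19, and the dotted line 0.05. All 20 points of Sdf2l1 lie below the line, while those of Manf, Sec61a1, Pdia3 and Sec61b lie on both sides.

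In the other steps of the pathway 1 of 112 tested genes passed, against 3.36% of all genes called either way and 2.68% called lower. For the counts at an unadjusted p under 0.05 (edgeR) given below, the share over all genes was 21.7%. Sec24a, a cargo-binding subunit of the COPII coat that buds vesicles from the ER, stood at 23.4 to 28.5 CPM with rapamycin (median 26.8) and at 27.6 to 33.8 in controls (median 30.1), a fall of log2 0.21 (SE 0.05, adjusted p = 0.0274 by edgeR). It was 1 of 20 COPII and retrieval genes, whose median was -0.01. Kdelr2, a receptor that returns ER proteins, was at -0.18 ± 0.05 (0.0595). Of 27 other folding and oxidation genes 19 had values below 0 (median -0.09, 0 called and 12 at an unadjusted p under 0.05 by edgeR, 8 of them below 0). The smallest p values were those of the prolyl isomerase Fkbp11 at -0.72 ± 0.20 (0.0513) and the isomerase Txndc5 at -0.28 ± 0.09 (0.0751).

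The lists of N-glycosylation (median -0.05 over 16 genes), other degradation genes (-0.01 over 15), other targeting and translocation genes (0.02 over 16) and other stress regulators (-0.02 over 8) gave 0 calls by edgeR. An unadjusted p under 0.05 (edgeR) was found for 4, 2, 4 and 0 of their genes, against 21.7% of all genes. In that order of lists, the 2 smallest p belonged to Alg5 and Magt1 (-0.19 and -0.14), to Edem2 and Os9 (-0.30 and -0.17), to Srp68 and Srpr of signal recognition (0.18 and 0.13), and to Mbtps1, the protease that activates ATF6, and Wfs1 (0.10 and 0.27). In the PERK and ATF4 branch 0 of 10 passed (2 at an unadjusted p under 0.05 by edgeR, median -0.04), with the asparagine synthetase Asns at -0.54 ± 0.19 (adjusted p = 0.102) and the phosphatase subunit Ppp1r15b at -0.24 ± 0.09 (0.147).

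Per kilobase of annotated exon (GENCODE M21), the members spanned a wide range of levels. Hsp90b1 was highest at 159.0 ± 12.8 CPM per kilobase with rapamycin and 182.0 ± 24.6 in controls, and Hspa5 followed at 122.0 ± 12.8 and 136.0 ± 18.7 (rapamycin and control, SD, n = 10 per diet). Herpud1, Calr, Canx and Pdia3 came next, in that order in rapamycin hearts (66.4 ± 5.83 for Pdia3 to 87.4 ± 14.5 for Herpud1). In controls the 4 lay between 77.5 ± 9.18 (Canx) and 84.8 ± 11.2 (Calr), within their spread. Sdf2l1, with the strongest shift, was near the low end at 3.94 ± 0.884 CPM per kilobase with rapamycin and 6.56 ± 1.43 in controls, not far from the sensors Eif2ak3 (4.02 ± 0.283 and 4.56 ± 0.730) and Ern1 (1.51 ± 0.111 and 1.6 ± 0.166). Derl3 was lowest at 0.335 ± 0.241 with rapamycin and 0.849 ± 0.820 in controls. Exons of Manf overlap Rbm15b by 14 bases and the opposite-strand 4930524O07Rik by 166, those of Pdia3 overlap Catsper2 by 18, and those of Sec61a1 overlap an opposite-strand gene, Gm44170, by 549. Eif2ak3 overlaps Gm43292 by 485 bases, and overlaps of 231 to 415 bases were found for Hsp90b1, Spcs1 and Derl2. Whether counting used strand is not known from these sources, so reads in the overlaps cannot be told apart.

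Each member was related to Hspa5 from heart to heart after subtracting the diet means. Relations among the other members were not computed, so these values cannot show whether the members rise and fall together. Hspa5 was also lowest of the controls in control 19, where 19 of the 35 members were highest. Of 33 members 0 passed (permutation test within diet, 100000 resamples, 2-sided, adjusted over 13939 genes, of which 0.509% passed), and 5 had an unadjusted p under 0.05, against 22.9% of all genes. The strongest relation was that of Canx, with Pearson r = 0.641 (permutation p = 0.00426, adjusted 0.0897) and Spearman rho = 0.669 (permutation p = 0.00294, adjusted 0.335), over 20 hearts. The r of Canx was 0.737 within rapamycin hearts, 0.598 within controls and 0.771 without the 2 hearts farthest from the median of Hspa5, rapamycin 5 and control 17. Without control 19 it was 0.58, below Hsp90b1 (0.716), Manf (0.605) and Pdia6 (0.588). By Spearman's rho 0 members passed, as did 0.0% of all genes, and 3 members had an unadjusted p under 0.05, against 9.87% of all genes. The median r over the members was 0.01, or 0.21 without control 19 (0.01 over all genes), where 28 of 33 were above 0, against 51.8% of all genes. In that setting 0 members passed by the same permutation test, as did 0.0% of all genes, and 7 members had an unadjusted p under 0.05, against 10.3% of all genes. Among the members called lower with rapamycin, r over all 20 hearts was 0.00602 for Sdf2l1, 0.0962 for Manf, -0.189 for Pdia3 and -0.446 for Sec61a1. Without control 19 it was 0.207 for Sdf2l1, 0.605 for Manf, 0.0883 for Pdia3 and -0.199 for Sec61a1.

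The authors' deposited table of 700 selected genes, whose selection is not described in the sources used here, holds 7 of the 35 members: Sdf2l1, Manf, Pdia3, Pdia4, Creld2, Sec61a1 and Sec61b. The 700 genes are 2.04% of the 34291 rows of the full table. Of those rows 13940 had enough reads to be tested, whereas 34 of the 35 members had, so the shares have unlike bases.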

How the data were processed

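Reads of 50 bp, paired-end, were mapped to unique sites of MGSCv37 with at most 2 mismatches, per the series' design text; the sources used here give neither aligner nor counter, and the submitters' processing notes list edgeR with no role. The authors deposited raw read counts per gene symbol and, for 700 genes, CPM that equal the counts over column totals. The column of rapamycin 4 lacks 1 letter of its title and matched no other title. Libraries are named by diet and label number; the design text gives 10 mice per diet, so replicates are animals. No batch is given in the labels.

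From the deposited counts, 13940 genes passed edgeR's expression filter. TMM scaling came next, then quasi-likelihood F-tests (edgeR 4.0.16, R 4.3.3) without covariates, with Benjamini-Hochberg adjustment over all genes. SE is the fold over the square root of F. CPM are per TMM library size, and their log2 form uses 2 as prior count. DESeq2 1.42.0, limma 3.58.1, other scalings and filters, marker covariates and left-out libraries were alternatives. The fit was tested on simulated data.

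The members, gene lists, markers and tests were chosen with earlier results of these data known. Named in full are called members, the sensors, the smallest p of each role group and Hspa5; of other lists, called genes and the 2 smallest p. Other members named with values were picked after these were seen. Promoters are RefSeq (GRCm38.p6), matched by symbol for 28 of 35 members. GENCODE M21 was used for exon lengths and exon overlaps only. The builds differ from that of the counts, so names alone link them to the counts.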

Additional observations from a re-analysis of the deposited data

Results flagged for a closer look

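A library that stood far from the other 9 of its diet was found in 10 of 70 groups (35 members in both diets), where chance gives about 1 in 20. In each the gap to the nearest library, as a share of the group's range, exceeded Dixon's 95% critical value. In 9 of them the library was control 19, the heart with lung epithelium transcripts and the lowest cardiomyocyte marker sum. It was the highest control, in normalised CPM, for Sec61b at 24.7 (next 14.1), Xbp1 at 115.9 (81.6), Ssr1 at 110.1 (84.6), Dnajc3 at 136.6 (101.5), Derl3 at 3.94 (1.66), Ssr2 at 39.1 (31.1), Manf at 46.3 (35.7) and Spcs1 at 83.4 (67.9). It was the lowest control for Atf6 at 92.6 (next 129.6). The remaining one was Creld2 in rapamycin 3, at 16.8 CPM against 14.9 in the next rapamycin library. The part of lung or other tissue in these values was not tested.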

How the results depend on the processing

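No paired analysis was possible because each library number occurs in 1 diet only. With no scaling factor the median of all genes moved to -0.13 (log2), that of the members to -0.28, and 17 members and 1332 genes were called (48 higher, 1284 lower). Without a filter 1 member, Sdf2l1, was called lower, with Manf, Pdia3 and Sec61a1 at adjusted p of 0.0562, 0.0854 and 0.0674 (edgeR), 59 genes were higher and 276 lower. DESeq2 called 8 members and 969 genes (322 higher, 647 lower), and limma voom with quality weights 7 members and 1076 genes (418 and 658). Without the 4 libraries with lung transcripts 280 genes changed (88 higher, 192 lower), Pdia3 and Sec61a1 lost their call and Sec61b gained one (adjusted p = 0.0441 by edgeR). With the fibroblast level as a covariate 2 members and 405 of 13940 genes were called, and Pdia3 and Sec61a1 lost their call. With the cardiomyocyte level 0 members and 50 genes were called (11 higher, 39 lower), and with the macrophage level 0 members and 0 genes (0 higher, 0 lower); at an unadjusted p under 0.05 these fits had 9 and 4 members (edgeR). Both were repeated without control 19, chosen after seeing the data: 0 members and 11 genes (4 higher, 7 lower) with the cardiomyocyte level and 0 and 0 with the macrophage level (0 higher, 0 lower), with 7 members each at an unadjusted p under 0.05 (edgeR). Also added then, the macrophage level without Lyz2 gave 0 members and 0 genes (0 higher, 0 lower), with 9 members at an unadjusted p under 0.05 (edgeR). Leaving out each library in turn gave 1 to 6 members lower, 0 higher, and 165 to 791 genes changed (23 to 197 higher, 142 to 594 lower); without control 19, 147 genes were higher. The number of members with values below 0 stayed between 28 and 31 in these 20 fits. The cause of each change was not tested. Depth limits Derl3, with a median of 6 counts, more than the other members.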
